A study of Mus musculus with 6 samples.

Results

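The matrix metalloproteinases (MMPs), the ADAMTS proteinases and the tissue inhibitors of metalloproteinases (TIMPs) were taken from the gene count table by symbol: every gene named Mmp, Adamts or Timp followed by its family number. The rule found 46 genes of the 55286 symbols in the table, of which 23 were MMPs, 19 were ADAMTS genes and 4 were TIMPs. The rule itself uses symbols and no measured value. RNA had been sequenced from 6 mouse libraries in 3 groups of 2: cells titled as direct reprogramming, with the cell type spelled Transdifferentiontion cell (transdifferentiated cells from here on), muscle, and mouse embryonic fibroblasts (MEF). The sources used here do not give the conversion factor, the strain, the age, the starting cells of the conversion or whether the muscle samples were tissue or culture. Nothing in the labels says that replicates came from separate cultures or animals, so p-values measure the spread among these libraries alone, and that spread may be technical.

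MMPs are zinc-dependent endopeptidases that are made as inactive proenzymes and cut collagens, laminins, fibronectin and other parts of the extracellular matrix. ADAMTS proteinases are secreted relatives that bind the matrix through thrombospondin repeats and cut proteoglycans such as versican and aggrecan, trim procollagens or act on fibrillin microfibrils. TIMPs bind the active site of these enzymes and block them, and Timp2 also takes part in the activation of proMmp2 at the cell surface by Mmp14. In skeletal muscle these genes are known from regeneration, in which the matrix around fibres and satellite cells is remodelled, and from the clearance of versican around fusing myoblasts.

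Libraries held 16817033 and 21072555 counts in transdifferentiated cells, 24584951 and 16952000 in muscle, and 18997705 and 18978216 in MEF. The labels were set against marker genes. The 10 skeletal muscle markers summed to 45798 and 65699 CPM (counts scaled to a common library total) in transdifferentiated cells and to 65708 and 60077 CPM in muscle, against 584 and 395 CPM in MEF. The 10 fibroblast markers summed to 9311 and 13504 CPM in transdifferentiated cells and to 11319 and 5959 CPM in muscle. In MEF they summed to 26166 and 15993 CPM. Col1a1 (8228 and 3925 CPM) and Col1a2 (2788 and 1801 CPM) made up most of the sums in muscle. The sums do not tell which cells this RNA came from. By edgeR, 5 of these 10 markers were higher and 0 lower in transdifferentiated cells than in muscle (Thy1, Pdgfra, Dcn, Lum and Ly6a, median log2 fold change of the list 1.32), and in muscle 7 were lower and 0 higher than in MEF (median -2.46). Against MEF, transdifferentiated cells had 1 higher and 3 lower (median -0.63). Their part in the members' differences was not tested. In bulk RNA, fewer cells of a type and less RNA per cell cannot be told apart. Replicate 2 was the higher of the pair for most of the 35 members tested in transdifferentiated cells, where replicate 1 was above it for 8. Replicate 1 was above replicate 2 for 29 of 35 in muscle and for 22 of 35 in MEF, against 50.1%, 50.6% and 50.2% of all tested genes in transdifferentiated cells, muscle and MEF.

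Of the 46 genes, 35 passed the filter on low counts and were tested among 17400 genes. The other 11 were Adamts13, Adamts18, Adamts19, Mmp1a, Mmp1b, Mmp7, Mmp20, Mmp21, Mmp24, Mmp25 and Mmp27. Mmp7, the matrilysin of epithelia, and Mmp20, an enamel enzyme of teeth, had 0 counts in all 6 libraries, which allows up to 0.128 to 0.183 CPM depending on the library. The highest count in this set was 27, of Mmp25 in MEF replicate 1, and Mmp25 had 3 counts in MEF replicate 2. Mmp27 had 11 and 2 counts in transdifferentiated cells, 0 in both muscle libraries, and 3 and 1 in MEF.

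Against MEF, transdifferentiated cells had 6 members higher and 11 lower, by edgeR's quasi-likelihood test at an adjusted p under 0.05. Of all genes tested, 15.9% were higher and 11.3% lower in that comparison, and the members' shares were 17.1% and 31.4% of the 35 tested, so the share of members that were higher was close to that of all genes. The median log2 fold change of the tested members was -0.42, beside 0.07 for all genes. The number lower was 5 without transdifferentiated replicate 1 and 7 without MEF replicate 1, and it was also 7 with replicate number as a block and 7 when only these 2 groups were fitted. Those lower included 3 of 4 TIMPs, the membrane-type proteinases Mmp14 and Mmp16, and the stromelysins Mmp10 and Mmp11. Those higher were Mmp15, Adamts8, Adamts15, Adamts16, Adamts17 and Adamts20.

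Against muscle, transdifferentiated cells had 10 members higher and 0 lower. Of all genes tested, 7.58% were higher and 2.46% lower, and the members called higher were 28.6% of the 35 tested. The median log2 fold change of the tested members was 1.03, beside 0.03 for all genes. The count of 0 lower came from edgeR, and DESeq2's Wald test also gave 0. At an unadjusted edgeR p under 0.05, Timp1 and Timp3 were lower, 2 members in all, with 7.32% of all genes lower by that measure. With an offset for GC content per library, added after seeing the data, 4 were lower, as were 4 with a block that crossed the replicate numbers, also added then. The number higher was 5 without muscle replicate 2, 16 with the GC offset and 19 with the crossed block.

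Muscle against MEF had 5 members higher and 21 lower, with 17.3% of all genes higher and 18.3% lower. The members' shares were 14.3% higher and 60% lower of the 35 tested, and their median log2 fold change was -1.44, beside 0.00 for all genes. The number lower was 12 without muscle replicate 2, and the number higher was 3 without muscle replicate 1. The 3 comparisons share libraries, so their results are not independent of each other. Leaving out each of the 6 libraries in turn kept the call of 5 of 6 higher and 4 of 11 lower members in transdifferentiated cells against MEF, of 5 of 10 higher members against muscle, and of 3 of 5 higher and 12 of 21 lower members in muscle against MEF.

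**Figure D1:**
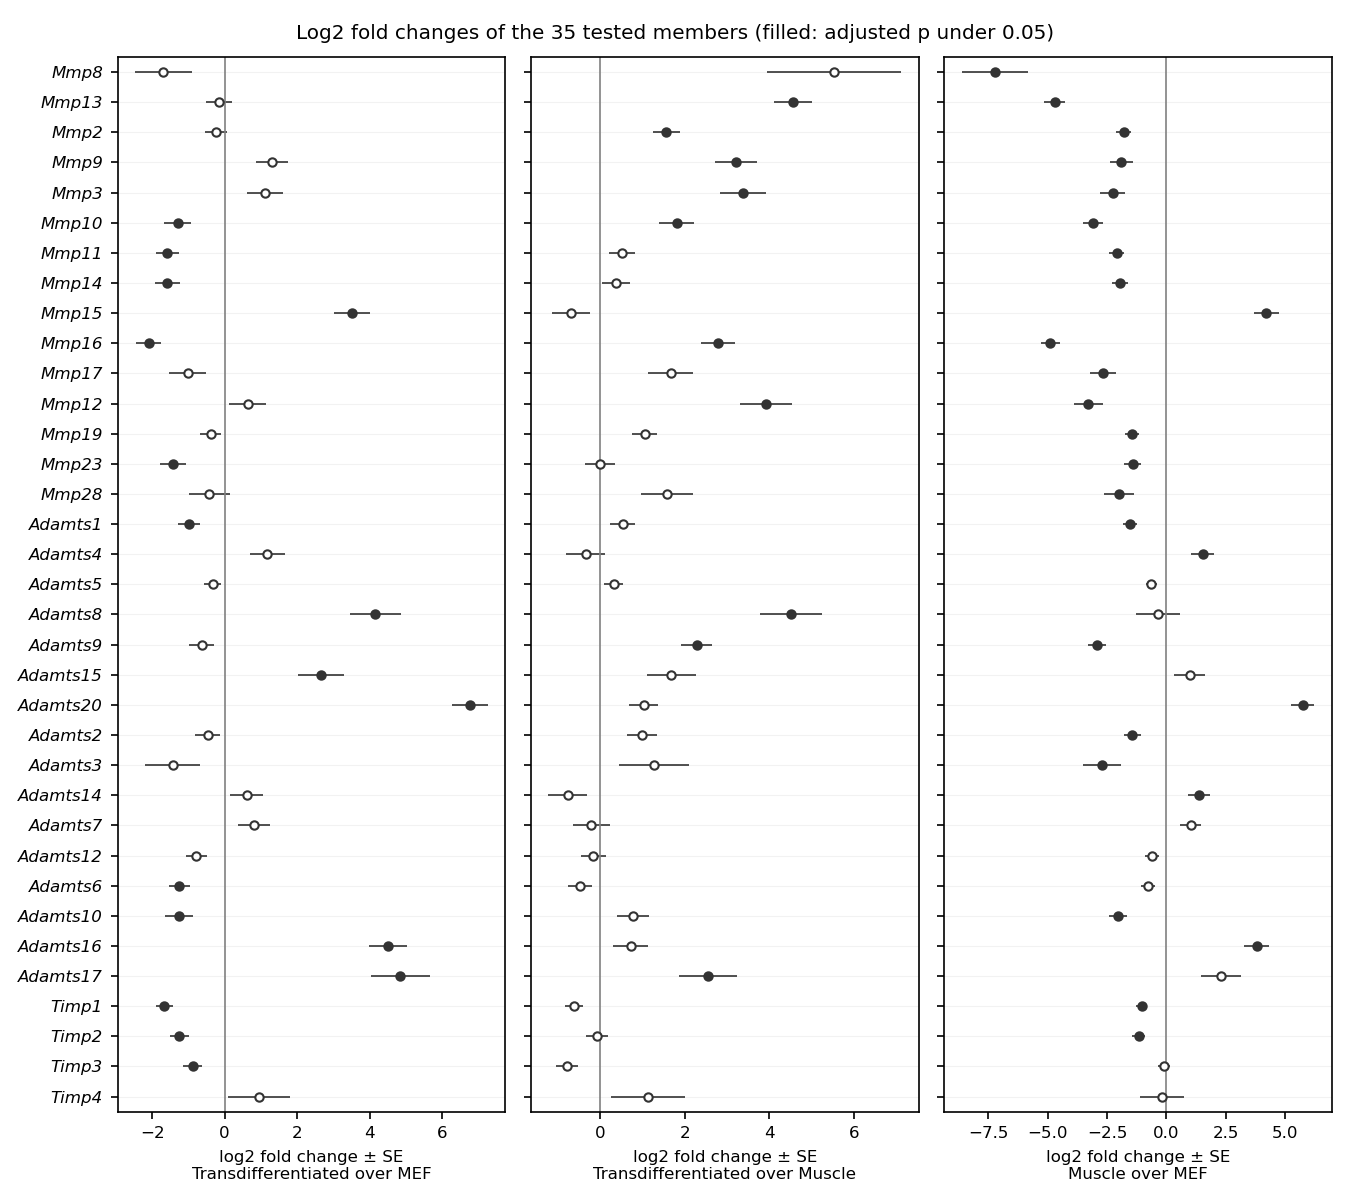
Log2 fold changes ± SE of the 35 tested members (horizontal axes, one panel per comparison: transdifferentiated over MEF, transdifferentiated over muscle, muscle over MEF), with members down the page by role and filled points for an edgeR adjusted p under 0.05. In the middle panel the 10 filled points all lie above 0, and in the right panel 21 of the 26 filled points lie below 0.

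A cluster of 10 Mmp genes lies within 427 kb of chromosome 9 (mm10, chr9:7272514-7699585, GENCODE M21), in the order Mmp13, Mmp12, Mmp1b, Mmp3, Mmp1a, Mmp10, Mmp8, Mmp27, Mmp20 and Mmp7. Promoters of this cluster are known for binding sites of AP-1, the Fos and Jun dimer, a short distance before a TATA box, so the promoters of its 4 most abundant genes are shown. Each is 250 bases before to 50 bases after the start of a transcript (RefSeq, GRCm38.p6, plus strand), with capitals for the AP-1 motif TGAGTCA on either strand, which reads TGACTCA where it lies on the minus strand, and for TATAAA on the sense strand. The windows are chr9:7272264-7272563 for Mmp13, chr9:7445572-7445871 for Mmp3, chr9:7502092-7502391 for Mmp10 and chr9:7347124-7347423 for the second listed start of Mmp12.
Mmp13: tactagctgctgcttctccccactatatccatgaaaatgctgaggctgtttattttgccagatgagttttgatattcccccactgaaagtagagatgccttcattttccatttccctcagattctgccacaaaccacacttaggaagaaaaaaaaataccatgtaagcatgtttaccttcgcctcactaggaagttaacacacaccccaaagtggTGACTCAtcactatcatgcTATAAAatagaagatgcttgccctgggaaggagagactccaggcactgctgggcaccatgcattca
Mmp3: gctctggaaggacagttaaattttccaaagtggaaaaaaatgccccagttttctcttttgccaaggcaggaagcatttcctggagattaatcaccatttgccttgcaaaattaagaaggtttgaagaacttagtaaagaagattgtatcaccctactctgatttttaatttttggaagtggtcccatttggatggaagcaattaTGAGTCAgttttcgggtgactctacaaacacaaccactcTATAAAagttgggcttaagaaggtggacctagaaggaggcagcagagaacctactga
Mmp10: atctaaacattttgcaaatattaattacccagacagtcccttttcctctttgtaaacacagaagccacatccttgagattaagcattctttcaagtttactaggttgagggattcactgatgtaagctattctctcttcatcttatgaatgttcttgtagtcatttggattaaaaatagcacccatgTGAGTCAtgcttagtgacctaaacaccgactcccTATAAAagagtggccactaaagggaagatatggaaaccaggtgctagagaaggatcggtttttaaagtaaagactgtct
Mmp12: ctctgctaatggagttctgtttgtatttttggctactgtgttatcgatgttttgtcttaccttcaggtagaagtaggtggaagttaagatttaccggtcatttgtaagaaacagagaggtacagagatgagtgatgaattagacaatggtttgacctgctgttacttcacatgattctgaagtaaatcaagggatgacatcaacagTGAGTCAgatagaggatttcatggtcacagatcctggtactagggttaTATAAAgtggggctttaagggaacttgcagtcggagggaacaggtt

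The AP-1 motif lay 35 bases before the start in Mmp13, 46 in Mmp3, 63 in Mmp10 and 44 in Mmp12, in each case ahead of the TATAAA. The TATAAA lay 16 bases before the start in Mmp13, 7 in Mmp3 and 29 in Mmp10. In Mmp12 the TATAAA lay 4 bases after the start. The other listed start of Mmp12 had no match to the AP-1 motif, and another listed start of Mmp7 had none either. An entry was found for 32 of the 46 members, including all 10 of the cluster. Mmp2, Mmp9, Mmp16, Mmp17, Mmp19 and some ADAMTS genes had no entry, so their promoters were not searched. The AP-1 motif was in 7 of the 10 cluster genes (Mmp10, Mmp12, Mmp13, Mmp1a, Mmp1b, Mmp3 and Mmp7) and in 0 of the 22 members elsewhere, and it was in 5.20% of all 32851 promoters in the table. TATAAA was in 8 of the 10 cluster genes and in 2 of the 22 elsewhere, Adamts1 and Mmp21, against 8.32% of all promoters. The E-box CAGCTG on either strand, the form bound by MyoD-type factors, was in 0 of the 10 cluster genes and in 7 of the 22 elsewhere (Adamts2, Adamts9, Adamts12, Adamts17, Mmp25, Timp2 and Timp4), against 16.3% of all promoters. A gene was counted if any of its listed starts had a match, whereas the shares of all promoters count each start by itself. These are matches of letters in one window and say nothing of binding.

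Cluster genes were low in muscle and were present in transdifferentiated cells at levels nearer to those of MEF. The summed level of the 10 genes was 86.5 and 68.7 CPM in transdifferentiated cells and 8.83 and 4.69 CPM in muscle, against 55.1 and 75.1 CPM in MEF. Both muscle libraries lay below all other libraries, and the transdifferentiated and MEF libraries overlapped. Of the 5 cluster genes tested, 4 were higher and 0 lower in transdifferentiated cells than in muscle, 1 was lower than in MEF, and against MEF muscle had 5 lower. None was higher than in MEF by edgeR with the filter, scaling and libraries used throughout, by DESeq2 or at an unadjusted edgeR p under 0.05. Mmp3 was called higher than in MEF by edgeR with no filter (adjusted p = 0.0113) and with only the 2 groups fitted (0.0373). Of the 10 tested MMPs elsewhere in the genome, 3 were higher and 0 lower in transdifferentiated cells than in muscle, 1 was higher and 4 lower than in MEF, and against MEF muscle had 1 higher and 9 lower.

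**Figure D2:**
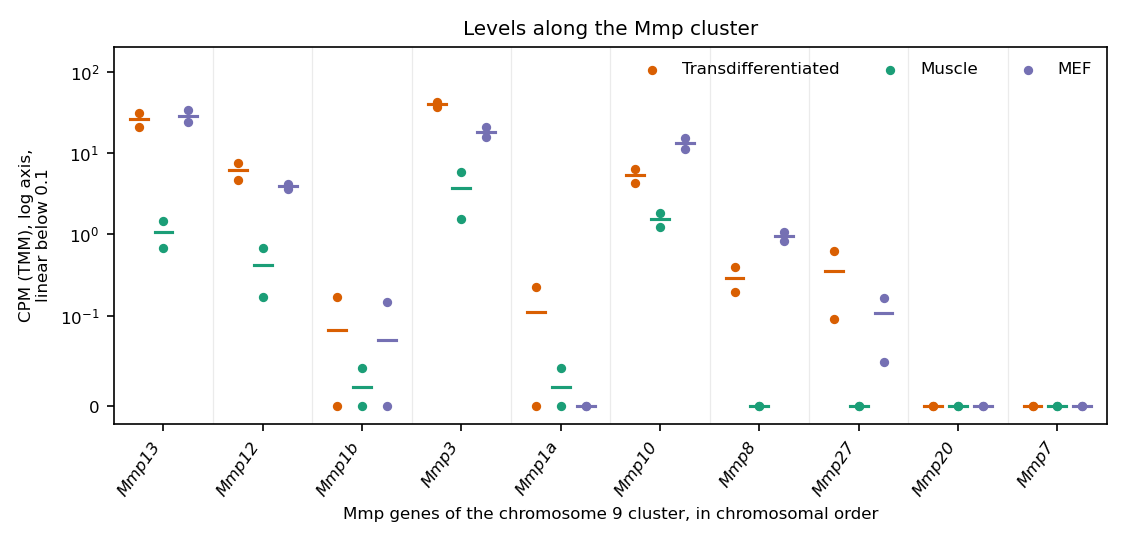
Levels of the 10 Mmp genes of the chromosome 9 cluster in chromosomal order (vertical axis, CPM on a log axis that is linear below 0.1; points are libraries and lines are group means). For Mmp13, Mmp12, Mmp3, Mmp10 and Mmp8 the muscle points lie below those of transdifferentiated cells and of MEF, and Mmp20 and Mmp7 are at 0 throughout.

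Mmp13, a collagenase that cuts fibrillar collagens, had 30.5 and 21.1 CPM in transdifferentiated cells and 1.45 and 0.669 CPM in muscle, against 23.8 and 33.6 CPM in MEF. The muscle libraries stood apart from both other groups, which overlapped each other. The mean in transdifferentiated cells was 24.3 times that in muscle (log2 fold change 4.56 ± 0.45 SE, edgeR adjusted p = 4.93e-04), and muscle was lower than MEF (-4.71 ± 0.45, edgeR adjusted p = 8.58e-05). The difference between transdifferentiated cells and MEF was -0.16 ± 0.37 (edgeR adjusted p = 0.794). Mmp8, the collagenase known from neutrophils, had 7 and 4 counts in transdifferentiated cells, 0 in both muscle libraries, and 15 and 22 in MEF. Set against the limit of 3 counts per library, 0.155 CPM for muscle, Mmp8 was at least 6.10-fold lower in muscle, set against MEF (edgeR adjusted p = 0.00495) and at least 1.89-fold higher in transdifferentiated cells than in muscle (edgeR adjusted p = 0.0713). The 8 neutrophil markers summed to at most 0.661 CPM in any library.

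Mmp3, stromelysin-1, which cuts proteoglycans and can activate other proMMPs, had 42.8 and 36.3 CPM in transdifferentiated cells and 5.88 and 1.52 CPM in muscle, against 15.5 and 20.9 CPM in MEF. The 3 groups did not overlap, with transdifferentiated cells highest. The difference from muscle was called (3.39 ± 0.55, edgeR adjusted p = 0.00532), as was that of muscle from MEF (-2.27 ± 0.53, edgeR adjusted p = 0.00948). The difference of transdifferentiated cells from MEF was 1.12 ± 0.49 (edgeR adjusted p = 0.131). It passed by edgeR when only these 2 groups were fitted (adjusted p = 0.0373) and with no filter (0.0113). Without muscle replicate 1 the difference was 1.114, and without muscle replicate 2 it was 1.115.

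Mmp10, stromelysin-2, lay between the other groups, with 4.27 and 6.39 CPM in transdifferentiated cells and 1.24 and 1.83 CPM in muscle, against 11.1 and 15.2 CPM in MEF. The groups did not overlap. Transdifferentiated cells were lower than MEF (-1.30 ± 0.38, edgeR adjusted p = 0.0350) and higher than muscle (1.81 ± 0.41, edgeR adjusted p = 0.0255), and muscle was lower than MEF (-3.11 ± 0.42, edgeR adjusted p = 5.96e-04). The call against MEF ended without MEF replicate 2, transdifferentiated replicate 1 or muscle replicate 2 (edgeR adjusted p = 0.137, 0.173 and 0.0506), with only the 2 groups (0.0520) and with the replicate block (0.0511). The call against muscle was lost without muscle replicate 1, muscle replicate 2 or transdifferentiated replicate 2 (edgeR adjusted p = 0.198, 0.0923 and 0.103).

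Mmp12, the metalloelastase best known from macrophages, had 7.48 and 4.70 CPM in transdifferentiated cells and 0.171 and 0.669 CPM in muscle, against 3.63 and 4.18 CPM in MEF. Every muscle library was below the rest, and every transdifferentiated library was above both MEF libraries. It was higher in transdifferentiated cells than in muscle (3.92 ± 0.62, edgeR adjusted p = 0.00497) and muscle was below MEF (-3.28 ± 0.62, edgeR adjusted p = 0.00352), and the difference from MEF was 0.64 ± 0.51 (edgeR adjusted p = 0.397). The 12 macrophage markers summed to 929 and 801 CPM in transdifferentiated cells and 4.99 and 2.07 CPM in muscle, against 83.3 and 82.5 CPM in MEF. All 11 of them that were tested were higher in transdifferentiated cells than in muscle and than in MEF, with Adgre1, Tyrobp and Ptprc at 0 in both muscle libraries and Itgam at 0 in both MEF libraries. Their part in the levels of Mmp12, of the other cluster genes and of Mmp9, which lies outside the cluster, was not tested.

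Among the gelatinases, which cut denatured collagen and basement membrane collagen, both genes were higher in transdifferentiated cells than in muscle. Mmp2 (mm10, chr8:92827291-92853420, plus strand) had 304 and 393 CPM in transdifferentiated cells and 147 and 88.1 CPM in muscle, against 455 and 360 CPM in MEF. The muscle libraries were below all others, and the other 2 groups overlapped. Mmp2 was higher in transdifferentiated cells than in muscle (1.57 ± 0.31, edgeR adjusted p = 0.0140, and 0.140 without muscle replicate 2) and muscle was below MEF (-1.79 ± 0.31, edgeR adjusted p = 0.00235). Its difference between transdifferentiated cells and MEF was -0.23 ± 0.30 (edgeR adjusted p = 0.630).

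Mmp9 (mm10, chr2:164940780-164955850, plus strand) had 6.63 and 8.09 CPM in transdifferentiated cells and 1.11 and 0.426 CPM in muscle, against 2.97 and 2.96 CPM in MEF. All 3 groups were separate. Mmp9 was higher in transdifferentiated cells than in muscle (3.21 ± 0.50, edgeR adjusted p = 0.00465) and muscle was below MEF (-1.90 ± 0.50, edgeR adjusted p = 0.0167, and 0.112 without muscle replicate 2). Its difference between transdifferentiated cells and MEF was 1.31 ± 0.45 (edgeR adjusted p = 0.0611), and it passed with only these 2 groups (edgeR adjusted p = 0.0436) and with DESeq2's Wald test (adjusted p = 0.0469).

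The membrane-type MMPs, which are anchored at the cell surface, did not move together. Mmp15 (mm10, chr8:95352268-95375080, plus strand) had 49.5 and 97.6 CPM in transdifferentiated cells and 130 and 109 CPM in muscle, against 9.36 and 3.64 CPM in MEF. Both MEF libraries were below the other 4. Mmp15 was higher than in MEF in transdifferentiated cells (3.50 ± 0.50, edgeR adjusted p = 0.00115) and in muscle (4.20 ± 0.52, edgeR adjusted p = 3.43e-04). The difference between transdifferentiated cells and muscle was -0.70 ± 0.45 (edgeR adjusted p = 0.460), and it was called lower in transdifferentiated cells with the GC offset (-0.75, edgeR adjusted p = 0.0276).

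Mmp16 (mm10, chr4:17852893-18119145, plus strand), which cuts collagen III and can activate proMmp2, went the other way, with 4.22 and 5.08 CPM in transdifferentiated cells and 0.512 and 0.852 CPM in muscle, against 19.5 and 20.3 CPM in MEF. The groups were well apart, with transdifferentiated cells between muscle and MEF. All 3 differences were called: -2.09 ± 0.35 for transdifferentiated cells over MEF (edgeR adjusted p = 0.00238), 2.79 ± 0.40 over muscle (edgeR adjusted p = 0.00293) and -4.88 ± 0.42 for muscle over MEF (edgeR adjusted p = 3.64e-05).

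Mmp14 (mm10, chr14:54431612-54445364, plus strand), the main cell-surface activator of proMmp2, had 235 and 367 CPM in transdifferentiated cells and 265 and 199 CPM in muscle, against 1124 and 672 CPM in MEF. Transdifferentiated cells and muscle overlapped, and both were below MEF. Mmp14 was lower than in MEF in transdifferentiated cells (-1.58 ± 0.34, edgeR adjusted p = 0.00924) and in muscle (-1.95 ± 0.34, edgeR adjusted p = 0.00250), and the difference between transdifferentiated cells and muscle was 0.37 ± 0.33 (edgeR adjusted p = 0.638). Mmp17, a member held by a lipid anchor, had 4.67 and 9.25 CPM in transdifferentiated cells and 2.86 and 1.46 CPM in muscle, against 19.2 and 9.13 CPM in MEF. Transdifferentiated cells overlapped MEF, and the difference of muscle from MEF was called (-2.69 ± 0.55, edgeR adjusted p = 0.00496). Both transdifferentiated libraries were above both muscle libraries (log2 fold change 1.67, edgeR adjusted p = 0.0952). This difference passed with DESeq2's Wald test (adjusted p = 0.0194) and, by edgeR, with only these 2 groups (adjusted p = 0.0436), with no filter (0.00255) and without transdifferentiated replicate 1 (0.0332), MEF replicate 1 (0.0313) or MEF replicate 2 (0.0258).

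Of the remaining MMPs, Mmp11 is a stromelysin activated inside the cell by furin. It had 34.8 and 52.6 CPM in transdifferentiated cells and 33.4 and 27.8 CPM in muscle, against 158 and 105 CPM in MEF. Both MEF libraries were above the other 4. Mmp11 was lower than in MEF in transdifferentiated cells (-1.59 ± 0.32, edgeR adjusted p = 0.00635) and in muscle (-2.10 ± 0.32, edgeR adjusted p = 0.00117). Mmp23, an MMP without the usual haemopexin domain, had 27.5 and 34.5 CPM in transdifferentiated cells and 38.7 and 23.5 CPM in muscle, against 105 and 62.2 CPM in MEF. Transdifferentiated cells and muscle overlapped, and Mmp23 was lower than in MEF in both (-1.43 ± 0.36 in each, edgeR adjusted p = 0.0174 and 0.0132). The first of these calls was lost without MEF replicate 1 (edgeR adjusted p = 0.0731) or transdifferentiated replicate 1 (0.0622), and the second without MEF replicate 1 (0.0588) or muscle replicate 2 (0.121).

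Mmp19, which cuts basement membrane proteins, had 25.5 and 27.4 CPM in transdifferentiated cells and 15.2 and 10.2 CPM in muscle, against 37.5 and 31.5 CPM in MEF. There was no overlap between groups, and the difference of muscle from MEF was called (-1.44 ± 0.30, edgeR adjusted p = 0.00527, and 0.0685 without muscle replicate 2), while that of transdifferentiated cells from muscle was 1.05 ± 0.29 (edgeR adjusted p = 0.0572). For Mmp19, this difference from muscle passed with DESeq2's Wald test (adjusted p = 0.0302). By edgeR it passed with no filter (adjusted p = 0.0321) and with the GC offset (0.0153). Mmp28, epilysin, had 1.18 and 3.82 CPM in transdifferentiated cells and 0.725 and 0.974 CPM in muscle, against 3.75 and 3.01 CPM in MEF. Transdifferentiated cells spanned both MEF values, and the call of muscle below MEF (-2.00 ± 0.62, edgeR adjusted p = 0.0333) was lost without MEF replicate 1 (edgeR adjusted p = 0.0689), muscle replicate 1 (0.161) or muscle replicate 2 (0.102).

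**Figure D3:**
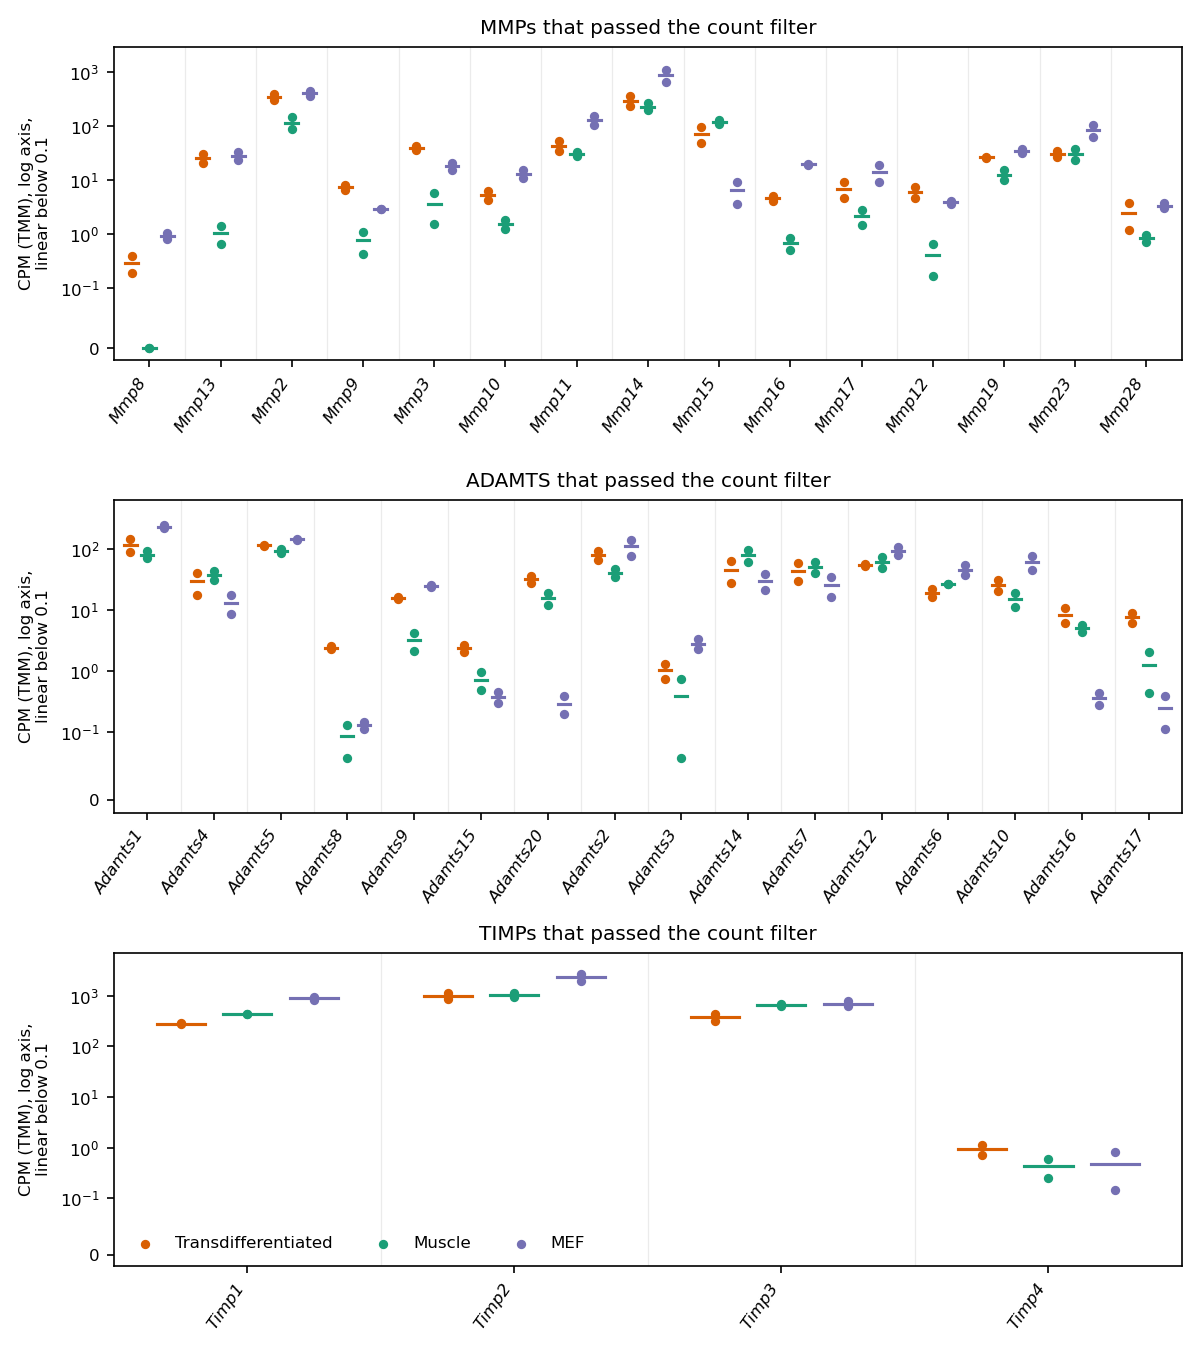
Levels of the 35 tested members in each library (vertical axes, CPM on a log axis that is linear below 0.1; panels for MMPs, ADAMTS and TIMPs; points are libraries and lines are group means). MEF points lie highest for Mmp11, Mmp14 and Mmp16 and lowest for Mmp15, Adamts15, Adamts16, Adamts17 and Adamts20.

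Among the 7 ADAMTS proteinases known for cutting proteoglycans, 3 were higher and 1 lower in transdifferentiated cells than in MEF. Of all tested genes, 15.9% were higher and 11.3% lower. Against muscle, 2 of the 7 were higher and 0 lower, beside 7.58% and 2.46% of all tested genes. Adamts20 (mm10, chr15:94270163-94465418, minus strand), a versican-cutting enzyme needed for coat pigmentation in mice, had 27.7 and 35.7 CPM in transdifferentiated cells and 19.2 and 11.9 CPM in muscle, against 0.386 and 0.194 CPM in MEF. The MEF libraries were far below the other 4, and both transdifferentiated libraries were above both muscle libraries. Its mean was 109 times that of MEF in transdifferentiated cells (6.76 ± 0.50, edgeR adjusted p = 2.33e-05) and 53.6 times that of MEF in muscle (5.74 ± 0.49, edgeR adjusted p = 4.19e-05). The difference between transdifferentiated cells and muscle was 1.03 ± 0.35 (edgeR adjusted p = 0.114).

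Adamts9, the closest relative of Adamts20, did the opposite in muscle, with 15.0 and 16.3 CPM in transdifferentiated cells and 4.22 and 2.13 CPM in muscle, against 23.5 and 25.1 CPM in MEF. The groups did not overlap. Adamts9 was higher in transdifferentiated cells than in muscle (2.28 ± 0.37, edgeR adjusted p = 0.00566, and 0.0511 without muscle replicate 2) and muscle was below MEF (-2.92 ± 0.38, edgeR adjusted p = 4.68e-04). Its difference between transdifferentiated cells and MEF was -0.64 (edgeR adjusted p = 0.215).

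Adamts8 and Adamts15, proteoglycanases that lie next to each other on chromosome 9 with 20109 bases between them, were both higher in transdifferentiated cells than in MEF. Adamts8 had 2.53 and 2.28 CPM in transdifferentiated cells and 0.128 and 0.0609 CPM in muscle, against 0.110 and 0.146 CPM in MEF, from 45 and 47 counts in transdifferentiated cells, 3 and 1 in muscle and 2 and 3 in MEF. Both transdifferentiated libraries stood above the other 4, which overlapped (4.16 ± 0.70 over MEF, edgeR adjusted p = 0.00259, and 4.52 ± 0.73 over muscle, edgeR adjusted p = 0.00497, or 0.0502 without muscle replicate 2). Adamts15 had 2.64 and 2.03 CPM in transdifferentiated cells and 0.938 and 0.487 CPM in muscle, against 0.441 and 0.291 CPM in MEF. All 3 groups were separate, and the difference of transdifferentiated cells from MEF was called (2.66 ± 0.63, edgeR adjusted p = 0.0132, and 0.0571 without MEF replicate 2).

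Adamts1, Adamts4 and Adamts5 cut aggrecan and versican, and Adamts1 and Adamts5 are neighbours on chromosome 16 with 53059 bases between them. Adamts1 had 88.5 and 145 CPM in transdifferentiated cells and 90.9 and 70.2 CPM in muscle, against 241 and 221 CPM in MEF. Both MEF libraries were above the other 4, and Adamts1 was lower than in MEF in transdifferentiated cells (-0.99 ± 0.30, edgeR adjusted p = 0.0378) and in muscle (-1.52 ± 0.30, edgeR adjusted p = 0.00439, and 0.0556 without muscle replicate 2). Leaving out MEF replicate 1, transdifferentiated replicate 1, muscle replicate 1 or muscle replicate 2 ended the call in transdifferentiated cells (edgeR adjusted p = 0.0831, 0.209, 0.0623 and 0.0629), as did fitting only the 2 groups (0.0684) and the replicate block (0.0799). Adamts5 had 112 and 116 CPM in transdifferentiated cells and 97.9 and 85.6 CPM in muscle, against 145 and 141 CPM in MEF. Its groups did not overlap, but none of the 3 differences was called (edgeR adjusted p = 0.331 for transdifferentiated cells over MEF, 0.534 over muscle and 0.0571 for muscle over MEF). Adamts4 had 17.5 and 40.8 CPM in transdifferentiated cells and 43.7 and 30.4 CPM in muscle, against 17.2 and 8.55 CPM in MEF. Transdifferentiated cells overlapped muscle, and both were above MEF. Its difference between muscle and MEF was called (1.53 ± 0.47, edgeR adjusted p = 0.0340), and this was lost without MEF replicate 2 or either of muscle replicates 1 and 2 (edgeR adjusted p = 0.0954, 0.161 and 0.0583). For transdifferentiated cells over MEF, the difference in Adamts4 was 1.18 ± 0.47 (edgeR adjusted p = 0.0982), and it passed with DESeq2's Wald test (adjusted p = 0.0430) and, by edgeR, with no filter (adjusted p = 0.00509) and without MEF replicate 1 or transdifferentiated replicate 1 (0.0201 and 0.0144).

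Adamts16, which has been described as cutting fibronectin, and Adamts17, linked to fibrillin and to a short-stature syndrome in humans, were both higher in transdifferentiated cells than in MEF. Adamts16 (mm10, chr13:70727802-70841811, minus strand) had 6.13 and 10.5 CPM in transdifferentiated cells and 5.71 and 4.38 CPM in muscle, against 0.275 and 0.437 CPM in MEF. Both MEF libraries were below the other 4 (4.51 ± 0.52 for transdifferentiated cells, edgeR adjusted p = 3.41e-04, and 3.79 ± 0.52 for muscle, edgeR adjusted p = 6.14e-04). Adamts17 (mm10, chr7:66839735-67153171, plus strand) had 6.07 and 8.96 CPM in transdifferentiated cells and 2.05 and 0.426 CPM in muscle, against 0.110 and 0.389 CPM in MEF. There was no overlap between groups, and transdifferentiated cells were higher than MEF (4.85 ± 0.82, edgeR adjusted p = 0.00279) and than muscle (2.55 ± 0.69, edgeR adjusted p = 0.0495). For muscle over MEF the difference in Adamts17 was 2.29 ± 0.84 (edgeR adjusted p = 0.0632). It passed with DESeq2's Wald test (adjusted p = 0.0154) and by edgeR with no filter (adjusted p = 0.00307). The call against muscle was lost without muscle replicate 2 or transdifferentiated replicate 2 (edgeR adjusted p = 0.213 and 0.116), with DESeq2's size factors (0.0514) and with the replicate block (0.0841).

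Adamts6 and Adamts10, which act at fibrillin microfibrils, were both lower in transdifferentiated cells than in MEF. Adamts6 had 21.9 and 16.3 CPM in transdifferentiated cells and 26.8 and 26.2 CPM in muscle, against 37.5 and 53.2 CPM in MEF. The groups did not overlap, with transdifferentiated cells lowest, and the call against MEF (-1.25 ± 0.29, edgeR adjusted p = 0.0134) was lost without MEF replicate 2 (edgeR adjusted p = 0.0595) or transdifferentiated replicate 2 (0.0641). Adamts10 had 20.1 and 30.8 CPM in transdifferentiated cells and 18.5 and 11.0 CPM in muscle, against 77.1 and 45.1 CPM in MEF. Both MEF libraries were above the other 4, and it was lower than in MEF in transdifferentiated cells (-1.26 ± 0.38, edgeR adjusted p = 0.0391) and in muscle (-2.04 ± 0.39, edgeR adjusted p = 0.00386). The call in transdifferentiated cells was lost without MEF replicate 1 or transdifferentiated replicate 1 (edgeR adjusted p = 0.176 and 0.152), with only the 2 groups (0.0513) and with the replicate block (0.0772).

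None of the 3 procollagen N-proteinases, which trim the amino-terminal propeptide of procollagens, was called in transdifferentiated cells against either group by DESeq2's Wald test. The same held by edgeR with the filter, scaling and libraries used throughout. At an unadjusted edgeR p under 0.05, 1 of the 3 differed, Adamts2, which was higher than in muscle by 0.98 on the log2 scale. That difference was called by edgeR with no filter (adjusted p = 0.0268) and with the GC offset (0.011). Adamts2 had 65.0 and 93.3 CPM in transdifferentiated cells and 46.3 and 33.9 CPM in muscle, against 141 and 77.5 CPM in MEF. Transdifferentiated cells overlapped MEF, and muscle was lower than MEF (-1.45 ± 0.36, edgeR adjusted p = 0.0122, with 0.0580 without MEF replicate 1 and 0.109 without muscle replicate 2). Adamts14 had 27.5 and 63.8 CPM in transdifferentiated cells and 95.2 and 61.0 CPM in muscle, against 39.1 and 21.1 CPM in MEF. The transdifferentiated libraries overlapped both other groups. Of the 3 it was the 1 with muscle above MEF (1.38 ± 0.46, edgeR adjusted p = 0.0446), a call lost without MEF replicate 2 or either of muscle replicates 1 and 2 (edgeR adjusted p = 0.124, 0.222 and 0.0603) and with the replicate block (0.0619). With the GC offset Adamts14 was called lower in transdifferentiated cells than in muscle (-0.83, edgeR adjusted p = 0.016). It was also called higher than in MEF with that offset (0.74, edgeR adjusted p = 0.0144). Adamts3 had 0.731 and 1.31 CPM in transdifferentiated cells and 0.725 and 0.0609 CPM in muscle, against 2.26 and 3.30 CPM in MEF. Both MEF libraries were above the other 4, and muscle was lower than MEF (-2.71 ± 0.81, edgeR adjusted p = 0.0291, with 0.0595 without MEF replicate 2 and 0.108 without muscle replicate 2).

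Adamts7 and Adamts12, which bind and cut cartilage oligomeric matrix protein, were called in no comparison by edgeR with the filter, scaling and libraries used throughout. At an unadjusted edgeR p under 0.05 each differed in 1 comparison, Adamts7 between muscle and MEF (1.01) and Adamts12 between transdifferentiated cells and MEF (-0.78), and DESeq2's Wald test called Adamts12 (adjusted p = 0.0495). Adamts7 was called higher in muscle than in MEF by edgeR with no filter (adjusted p = 0.0118) and without MEF replicate 1 or transdifferentiated replicate 1 (0.0137 and 0.0469), and higher in transdifferentiated cells than in MEF without MEF replicate 1 (edgeR adjusted p = 0.0381). With the GC offset, transdifferentiated cells were called higher than MEF for Adamts7 (edgeR adjusted p = 0.00465) and lower for Adamts12 (edgeR adjusted p = 0.0155). Adamts7 had 29.6 and 58.3 CPM in transdifferentiated cells and 61.2 and 40.8 CPM in muscle, against 34.3 and 16.4 CPM in MEF. Adamts12 had 55.6 and 52.0 CPM in transdifferentiated cells and 72.5 and 47.7 CPM in muscle, against 79.5 and 106 CPM in MEF. Transdifferentiated cells overlapped muscle for both genes.

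Of the 4 TIMPs, 3 were lower than in MEF in transdifferentiated cells and 2 in muscle, beside 11.3% and 18.3% of all tested genes. Timp1 (mm10, chrX:20870166-20874735, plus strand), a broad inhibitor of secreted MMPs, had 273 and 287 CPM in transdifferentiated cells and 433 and 429 CPM in muscle, against 935 and 837 CPM in MEF. All 3 groups were separate, with transdifferentiated cells lowest. Timp1 was lower than in MEF in transdifferentiated cells (-1.66 ± 0.23, edgeR adjusted p = 8.21e-04) and in muscle (-1.04 ± 0.22, edgeR adjusted p = 0.00621, with 0.0563 without muscle replicate 1 and 0.0673 without muscle replicate 2). The difference between transdifferentiated cells and muscle was -0.62 (edgeR adjusted p = 0.131), and it was called with the GC offset (-0.64, edgeR adjusted p = 0.0245).

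Timp2 (mm10, chr11:118301069-118355740, minus strand), the TIMP that forms a complex with Mmp14 and proMmp2, had 843 and 1116 CPM in transdifferentiated cells and 1132 and 935 CPM in muscle, against 2668 and 1990 CPM in MEF. Transdifferentiated cells and muscle overlapped and both were below MEF (-1.25 ± 0.27, edgeR adjusted p = 0.00910, for transdifferentiated cells, and -1.17 ± 0.27, edgeR adjusted p = 0.00896, for muscle). The first call was lost without transdifferentiated replicate 1 (edgeR adjusted p = 0.0576) and the second without muscle replicate 2 (0.0923).

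Timp3 (mm10, chr10:86300372-86349506, plus strand), the matrix-bound TIMP that also inhibits ADAMTS aggrecanases, had 322 and 438 CPM in transdifferentiated cells and 692 and 621 CPM in muscle, against 767 and 633 CPM in MEF. Muscle and MEF overlapped, and both transdifferentiated libraries were below all the others. The difference from MEF was called (-0.88 ± 0.25, edgeR adjusted p = 0.0314), and that from muscle was -0.79 (edgeR adjusted p = 0.0935). Leaving out MEF replicate 1, transdifferentiated replicate 1 or either muscle replicate ended the call (edgeR adjusted p = 0.118, 0.196, 0.0619 and 0.0637), as did fitting only the 2 groups (0.0664) and the replicate block (0.0818). Timp4 had 0.731 and 1.11 CPM in transdifferentiated cells and 0.256 and 0.609 CPM in muscle, against 0.826 and 0.146 CPM in MEF, and was called in no comparison.

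To set genes against each other, CPM was divided by the length of each gene's exons in kilobases. By this level per length, Mmp2 led the MMPs in transdifferentiated cells at 103 ± 18.6 CPM per kb (SD, n = 2), followed by Mmp14 at 50.5 ± 15.7 and Mmp3 at 21.9 ± 2.56 CPM per kb. In muscle Mmp14 was at 38.9 ± 7.85, Mmp2 at 34.9 ± 12.4 and Mmp15 at 22.1 ± 2.83 CPM per kb, and the first 2 of these lay within their spread of each other. The neighbours Mmp11, Mmp15 and Mmp23 in transdifferentiated cells (15.7, 13.6 and 13.3 CPM per kb) also lay within their spread. The ratio of Mmp14 to Mmp2 per length was 0.436 and 0.528 in transdifferentiated cells and 1.02 and 1.28 in muscle, against 1.40 and 1.06 in MEF, so both transdifferentiated libraries were below the other 4. Mmp2 made up 42.4% and 42.3% of the summed MMP level in transdifferentiated cells and 28.9% and 24.8% in muscle, against 28.7% and 32.1% in MEF. The cluster on chromosome 9 made up 18.5% and 11.8% in transdifferentiated cells and 3.05% and 2.13% in muscle, against 5.29% and 10.2% in MEF.

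The TIMP genes summed to 564 and 664 CPM per kb in transdifferentiated cells and 863 and 799 in muscle, against 1832 and 1531 in MEF. The MMP genes summed to 213 and 275 CPM per kb in transdifferentiated cells and 151 and 106 in muscle, against 470 and 333 in MEF. The 3 groups did not overlap in either sum: transdifferentiated cells were lowest for TIMPs, and muscle was lowest for MMPs. The TIMP sum was 2.53 ± 0.167 times the MMP sum in transdifferentiated cells and 6.65 ± 1.30 times in muscle, against 4.25 ± 0.496 times in MEF (SD, n = 2 each). There was no overlap between groups in this ratio, and with 2 against 2 libraries an exact two-sided permutation test cannot give a p below 0.333, so no test of it was made. ADAMTS genes summed to 64.7 and 97.4 CPM per kb in transdifferentiated cells and 84.4 and 60.6 in muscle, against 114 and 96.0 in MEF, and transdifferentiated cells overlapped both other groups. The ratio compares RNA levels per length and not inhibitor with active enzyme.

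**Figure D4:**
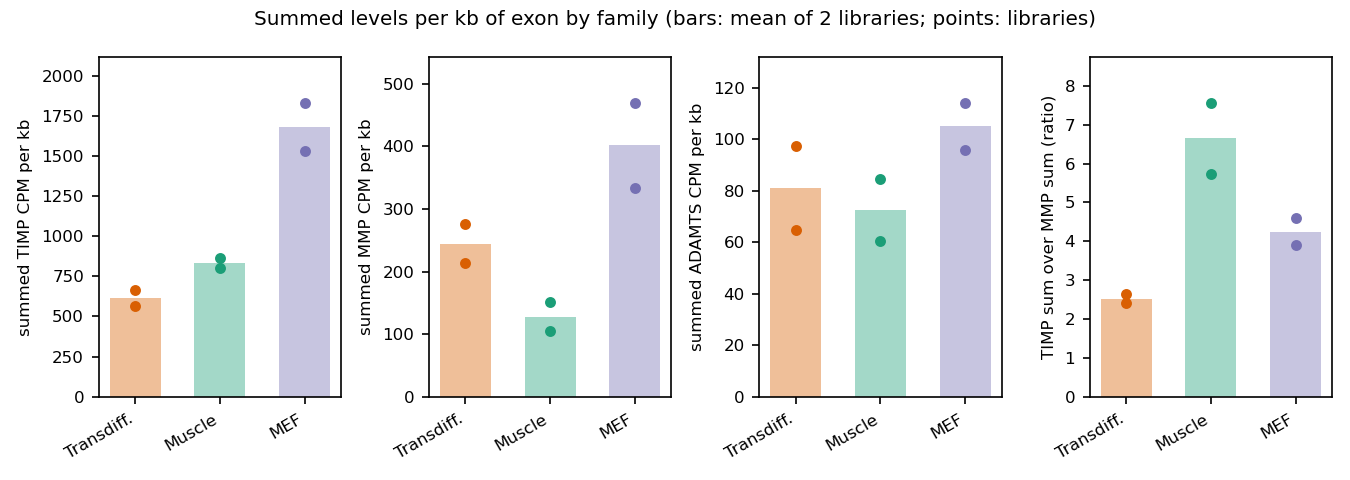
Summed levels per kb of exon of the TIMP, MMP and ADAMTS genes and the ratio of the TIMP to the MMP sum (vertical axes from 0; bars are means of 2 libraries, points are libraries). The ratio is 2.64 and 2.41 in transdifferentiated cells and 5.73 and 7.57 in muscle, against 3.90 and 4.60 in MEF, with no overlap between groups.

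Genes that act with these families were taken as 6 lists of 54 genes in all (ADAM proteinases, ADAMTS-like proteins, the plasminogen activator system, tolloid proteinases and meprins, other MMP inhibitors and activators, and matrix substrates), of which 46 were tested. In transdifferentiated cells 4 were higher and 20 lower than in MEF, beside 15.9% and 11.3% of all tested genes. Against muscle 16 were higher and 1 lower, beside 7.58% and 2.46% of all tested genes. Muscle had 3 higher and 29 lower than MEF, beside 17.3% and 18.3% of all tested genes. The median log2 fold changes in these comparisons were -0.92, 0.43 and -1.46. Adamtsl2, a fibrillin-binding protein without protease activity, had 40.0 and 78.5 CPM in transdifferentiated cells and 81.7 and 71.9 CPM in muscle, against 0.110 and 0.146 CPM in MEF (8.78 ± 0.55 for transdifferentiated cells over MEF, edgeR adjusted p = 9.30e-06). Ncan, the proteoglycan neurocan, had 9.28 and 14.9 CPM in transdifferentiated cells, 0 in both muscle libraries, and 0.0551 and 0.0486 CPM in MEF (7.70 ± 0.66 over MEF, edgeR adjusted p = 1.25e-04). A2m and Col3a1 were the other 2 that were higher than in MEF, named here after their values were seen.

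Plaur, the urokinase receptor of the plasminogen activator system, whose product plasmin can activate proMMPs, had 16.8 and 25.4 CPM in transdifferentiated cells and 18.2 and 21 CPM in muscle, against 184 and 138 CPM in MEF (-2.93 ± 0.31 for transdifferentiated cells over MEF, edgeR adjusted p = 2.18e-04). Transdifferentiated cells overlapped muscle, and MEF lay above both. All 4 tested genes of the tolloid list (Bmp1, Tll1, Pcolce and Pcolce2, which act in the removal of procollagen C-propeptides) were lower in transdifferentiated cells than in MEF. Of 10 tested ADAM genes, 5 were lower in that comparison, beside 11.3% of all tested genes.

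The authors' deposited table of one comparison lists 2806 genes, and 12 of the 46 members are among them, 9 with a positive and 3 with a negative log2 fold change. Its header names no contrast, and in the authors' deposited table the sign was that of MEF over muscle for 2645 of the 2645 listed genes tested here. All 12 members were called in muscle against MEF here, where 14 members were called with a size of 2 or more on the log2 scale.

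Exons of 13 members overlap another gene in the annotation, in each case on the opposite strand. The sources used here do not say whether counting used strand, so reads could be shared if it did not. The overlaps included 1733 bases of Timp3 with Syn3, 1381 of Adamts9 with A730049H05Rik, 789 of Mmp19 with Tmem198b, 157 of Mmp12 with Mmp1b, 155 of Mmp11 with Chchd10 and 122 of Adamts7 with Tbc1d2b. Syn3 was under 1 CPM in every library. Chchd10 was higher in muscle than in MEF (139 and 135 CPM, against 30.1 and 12.6 CPM), while Mmp11 was lower there.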

How the data were processed

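The authors deposited whole-number counts of reads per gene symbol for each of 6 libraries, with no normalization. Libraries from total RNA were prepared with Lexogen's strand-keeping SENSE kit and read for 75 bases from one end on a NextSeq 500, per the labels' protocols. The submitters' processing notes name mm10, featureCounts 1.6.2, HISAT2 2.1.0, DESeq2 1.26.0 and Trim Galore 0.6.0, without roles. The sources used here do not give the annotation or the strand setting of counting. The deposited table of the authors' comparison gives log2 fold changes and p-values, per the file headers. The authors deposited a further column with a mean signal over libraries, which matched no set of libraries and is not used here.

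Counts were fitted with edgeR 4.0.16 (R 4.3.3) across all 3 groups: filterByExpr by group, TMM factors, robust quasi-likelihood F test with 3 residual degrees of freedom, and Benjamini-Hochberg adjustment over 17400 genes, called at 0.05. CPM used TMM-scaled library sizes, and SE is the log2 fold change over the root of F. The biological coefficient of variation was 27.3%. A count of 0 was bounded by 3 counts, which covers counting error only. Alternatives were DESeq2 1.42.0, other factors, filters and fits, a replicate block and leaving out each library. The script was tested on simulated data. Members and lists were chosen with earlier results of these data known. Genes named are all TIMPs, members with a mean of at least 2 CPM in a group or a call, and, for the lists, the 2 with the smallest adjusted p in each direction against MEF. Results of 2 other genes are not reported here. Exon lengths and coordinates came from GENCODE M21 (mm10) by symbol, which matched all 46 members, and promoters from RefSeq (GRCm38.p6).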

Additional observations from a re-analysis of the deposited data

How the results depend on the processing

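The number of members lower in transdifferentiated cells than in MEF was 11, and 7 with only the 2 groups compared and 7 with the replicate block. Alternatives chosen after seeing the data, the GC offset and a block with crossed replicate numbers, gave 10 and 11 members higher in transdifferentiated cells than in MEF in place of 6. Against muscle they gave 16 and 19 higher in place of 10, and 4 and 4 lower in place of 0. The cause was not tested. Leaving out each library in turn gave 5 to 8 higher and 5 to 11 lower for transdifferentiated cells against MEF, 5 to 13 higher and 0 lower against muscle, and 3 to 7 higher and 12 to 21 lower for muscle against MEF. A lone library was assumed to vary like the other groups.

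Over 105 log2 fold changes and 1466 alternative values, 1302 kept their direction and side of the threshold, 59 lost a call, 85 gained one and 20 changed sign, 0 of these on a called value. Mmp23 in transdifferentiated cells over muscle was 0.0013 with only the 2 groups, 0.066 with the replicate block, 0.032 with the crossed block and 0.044 with the GC offset. Others changed sign when a library was left out: against MEF, Adamts14 (-0.16 to 1.11), Adamts2 (-0.84 to 0.026), Mmp13 (-0.44 to 0.11) and Mmp28 (-1.54 to 0.18). Against muscle these were Adamts12 (-0.44 to 0.17), Adamts4 (-1.09 to 0.14), Adamts7 (-0.80 to 0.20), Mmp23 (-0.32 to 0.40) and Timp2 (-0.31 to 0.11), and in muscle against MEF Timp3 (-0.23 to 0.049) and Timp4 (-0.97 to 1.49).

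Libraries share only a replicate number: deviations of same-numbered libraries correlated across 17400 genes at 0.31 for muscle and MEF, -0.53 for transdifferentiated cells and MEF and -0.29 for transdifferentiated cells and muscle. With the replicate block, the counts higher and lower were 6 and 7, 9 and 0, and 4 and 21 in the 3 comparisons. With 2 libraries a group and 3 residual degrees of freedom, members near the threshold cannot be placed firmly on either side of it. A GC content was known for 97.9% of the tested genes.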
